A study of Homo sapiens with 9 samples.

Results

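The matrix metalloproteinases (MMP), the ADAM and ADAMTS proteases, the ADAMTS-like proteins (ADAMTSL) and the tissue inhibitors of metalloproteinases (TIMP) were followed in SKOV3 cells, an established ovarian cancer cell line. Members were every gene annotated as protein-coding whose symbol was MMP, ADAM, ADAMTS or ADAMTSL followed by a number, or TIMP1 to TIMP4. This took 72 genes of the 19951 protein-coding genes listed: 24 MMP entries, 20 ADAM, 19 ADAMTS, 5 ADAMTSL and 4 TIMP genes. One of the MMP entries, MMP24OS, is a gene on the opposite strand of MMP24 and is not itself a protease. RNA of 3 groups with 3 libraries each was sequenced: SKOV3 cells expressing WT CDK9, the same kind of cells after 24 h with an inhibitor of the kinase ALK, and cells expressing the phospho-deficient Tyr19Phe (Y19F) CDK9. CDK9 is the kinase that releases paused RNA polymerase II, and the study asked how gene expression responds when its tyrosine phosphorylation by ALK is blocked by drug or by mutation. For the sequenced cells, the sources used here do not give the name or dose of the inhibitor, nor how many clones each line holds, nor a vehicle in the WT CDK9 cells. The mutation and other differences between the WT and Tyr19Phe CDK9 lines cannot be told apart in this design.

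All of these proteases except some ADAM proteins carry a zinc ion in the active site and are made as inactive precursors. The ADAMTSL proteins have no protease domain. Secreted MMPs degrade collagens, gelatin and other matrix proteins, membrane-type MMPs act at the cell surface, ADAMs release the outer parts of membrane proteins such as growth factors, Notch and cadherins, and ADAMTS proteases cut proteoglycans, procollagens and other matrix proteins. TIMPs block MMPs by occupying the active site, TIMP3 also blocks several ADAM and ADAMTS enzymes, and TIMP2 takes part in the activation of MMP2 by MMP14. In carcinomas this system is known for its part in invasion and in the shedding of receptor ligands. RNA levels say nothing of how much of an enzyme is secreted, activated or bound by an inhibitor.

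Total counts lay between 18169050 and 20974903 in the 6 libraries of WT CDK9 cells with and without the inhibitor, and between 26485891 and 29320184 in the 3 Tyr19Phe CDK9 libraries, so the mutant libraries were deeper. A count of 3, used as the floor of detection, was worth 0.102 to 0.165 CPM (counts scaled to 1000000 on the tested genes of a library, adjusted by edgeR's TMM factors), and this covers counting error only. The labels do not say whether the 3 libraries of a group came from separate cultures, so p-values measure the spread between these libraries, which may be technical. In bulk RNA, fewer cells that express a gene and less of its RNA per cell cannot be told apart. Of the markers of other cell types, 0 of 6 leukocyte and 1 of 4 endothelial genes passed the expression filter, and the 1 fibroblast marker of 6 that passed was COL1A1, which itself is a matrix substrate below. All 6 epithelial markers passed, although CDH1 was near the floor, at 7, 17 and 6 counts in WT CDK9 cells. Their summed level, most of it KRT7 and KRT8, was 3234 to 3470 CPM in WT CDK9 cells. It was 2971 to 3094 CPM with the inhibitor and 3446 to 3561 CPM in Tyr19Phe CDK9 cells. With the inhibitor KRT7 was called lower and KRT19 higher than in WT CDK9 cells. Single markers also moved both ways in Tyr19Phe CDK9 cells. KRT19 (log2 -1.24, adjusted p = 3.86e-17, edgeR) and EPCAM (-0.82, adjusted p = 1.76e-05) were lower than in WT CDK9 cells, and KRT8 (0.38, adjusted p = 5.11e-10) and KRT18 (0.39, adjusted p = 1.01e-06) were higher. Of 4 markers of SKOV3 cells and the ovarian lineage (ERBB2, PAX8, WT1 and MUC16), 3 passed the filter. Their summed level was 2036 to 2137 CPM in WT CDK9 cells, 2877 to 2898 CPM with the inhibitor and 1640 to 1798 CPM in Tyr19Phe CDK9 cells. ERBB2 was called higher with the inhibitor and lower in Tyr19Phe CDK9 cells. The endothelial marker CDH5, which was not tested, had 14, 35 and 17 counts in Tyr19Phe CDK9 cells and 0 or 1 in the other libraries. The part of these differences in the results below was not tested. CDK9 RNA was 47.6 to 49.7 CPM in WT CDK9, 43.8 to 47.3 CPM in ALK inhibitor-treated and 52.4 to 59.5 CPM in Tyr19Phe CDK9 cells and was not called in either comparison with WT CDK9 cells (adjusted p = 0.665 and 0.106). It was higher in Tyr19Phe CDK9 than in inhibitor-treated cells (log2 0.27, SE 0.08, adjusted p = 0.00961), and gene counts do not separate introduced from endogenous CDK9. ALK had 0 to 5 counts per library and was not tested.

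Of the 72 members, 42 passed the filter on low counts and were tested, and 12 had no read in any library. The tested members were 14 of the 24 MMP entries, 11 of 20 ADAM, 12 of 19 ADAMTS, 3 of 5 ADAMTSL and 2 of 4 TIMP genes. Levels were compared between genes as RPKM, which divides CPM by the deposited gene length in kilobases. A few members carried most of the RNA. ADAM9, a membrane protease with many reported substrates, had a mean of 77.8 RPKM over the 9 libraries, TIMP2 64.6, TIMP1 60.1, ADAMTS1 46.8 and MMP1 24.4 RPKM. ADAM9, TIMP2 and TIMP1 together made up 49.3% of the RPKM summed over the tested members, and the leading 5 made up 66.6%. Only 9 members reached 10 RPKM and 24 reached 1 RPKM.

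**Figure D1:**
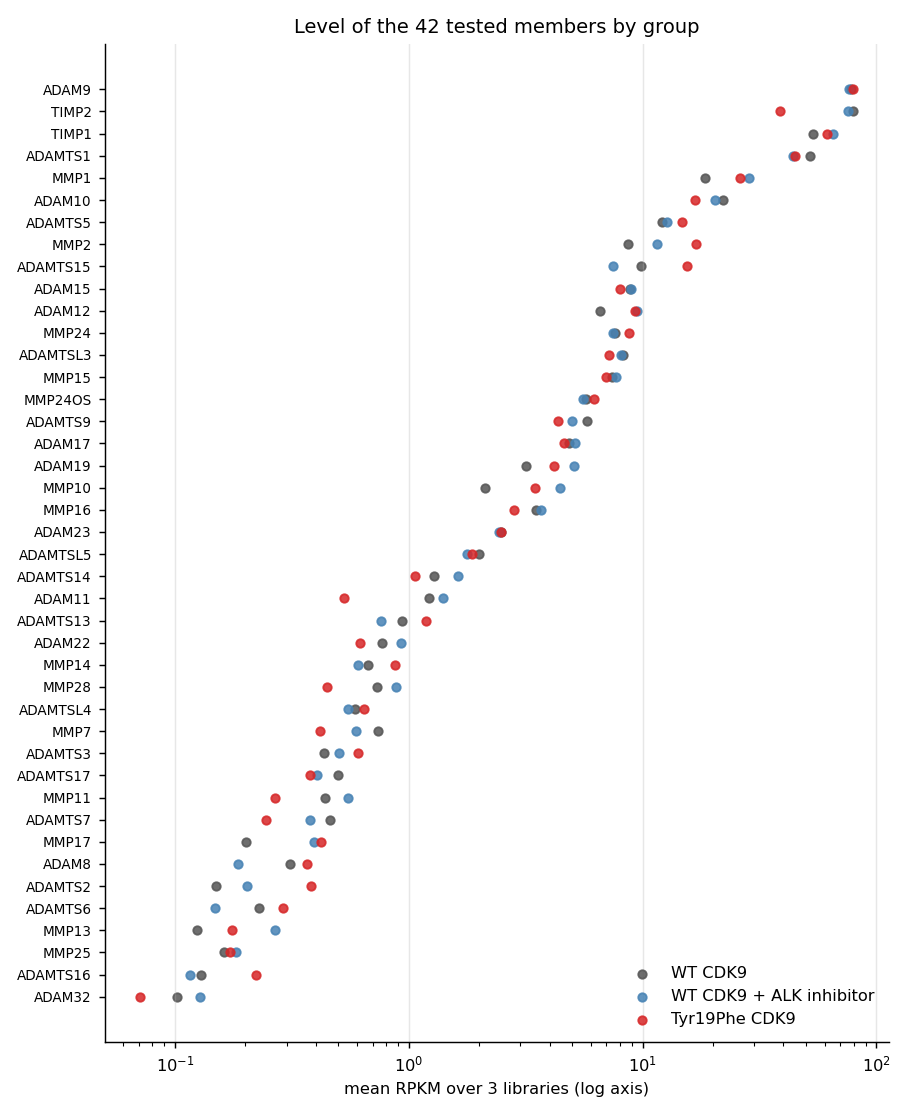
Mean level of the tested members in RPKM (TMM-scaled CPM divided by gene length in kilobases, log axis), for WT CDK9, ALK inhibitor-treated and Tyr19Phe CDK9 cells (3 libraries each). ADAM9, TIMP2, TIMP1 and ADAMTS1 stand at the top, and TIMP2 is lower in Tyr19Phe CDK9 cells than in the other groups.

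The order of the leading members differed between the groups. In WT CDK9 cells TIMP2 had the highest group mean (79.8 RPKM), closely followed by ADAM9 (77.6 RPKM), then TIMP1 (53.4 RPKM) and ADAMTS1 (51.9 RPKM). In ALK inhibitor-treated cells ADAM9 (76.4 RPKM) and TIMP2 (75.5 RPKM) came before TIMP1 (65.5 RPKM). In Tyr19Phe CDK9 cells ADAM9 (79.4 RPKM) was followed by TIMP1 (61.5 RPKM), ADAMTS1 (44.6 RPKM) and then TIMP2 (38.6 RPKM). ADAM9 itself was level: it read 548, 523 and 538 CPM in WT CDK9 cells, 533, 524 and 528 CPM with the inhibitor, and 571, 525 and 550 CPM in Tyr19Phe CDK9 cells. Relative to the WT CDK9 libraries it changed by -0.02 (log2, SE 0.04) with the inhibitor and by 0.03 (SE 0.04) in Tyr19Phe CDK9 cells, and it was called in no comparison.

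Each comparison was tested over 16350 genes by edgeR's quasi-likelihood test with Benjamini-Hochberg adjustment, in 1 model of all 9 libraries, and a gene was called at an adjusted p below 0.05. All adjusted p-values below come from this test. With the inhibitor, 6 of the 42 tested members were called higher and 2 lower than in WT CDK9 cells, 19% of those tested, beside 4.55% of all tested genes (1.82% higher and 2.73% lower). In Tyr19Phe CDK9 cells 9 members were higher and 7 lower, 38.1%, beside 18.0% of all tested genes (7.61% higher and 10.4% lower). In the direct comparison of Tyr19Phe CDK9 with ALK inhibitor-treated cells 4 members were higher and 8 lower, 28.6%, beside 20.7% of all tested genes (9.57% higher and 11.1% lower). The groups did not overlap for 13, 18 and 16 of the 42 tested members in these 3 comparisons, beside 19.6%, 32.6% and 34.4% of all tested genes. Highly expressed genes are called more often. Among the 12182 tested genes with a mean of at least 1 RPKM, 5.90%, 22.4% and 25.6% were called in the 3 comparisons, and so were 8, 14 and 10 of the 24 members at that level.

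The members did not shift as a block. Their median log2 fold change was 0.03 with the inhibitor and 0.06 in Tyr19Phe CDK9 cells, and that of all tested genes was -0.00 and 0.00. The median size of their log2 fold changes, whatever the sign, was 0.25 with the inhibitor beside 0.13 for all tested genes, and 0.39 beside 0.18 in Tyr19Phe CDK9 cells. These sizes were not compared at matched level. They include scarce members with wide standard errors, such as MMP13 with the inhibitor (log2 1.10, SE 0.76, not called). Both comparisons share the 3 WT CDK9 libraries, so their values stand side by side and are not independent. Called higher in both were 6 members, TIMP1, MMP1, MMP2, MMP10, ADAM12 and ADAM19, 1 was lower in both (ADAMTS1), and 1 was lower with the inhibitor and higher in Tyr19Phe CDK9 cells (ADAMTS15). Over all tested genes, 0.661% were called higher in both, 1.02% lower in both and 0.569% in opposite directions. ADAMTS2 and ADAMTS5 were called higher in Tyr19Phe CDK9 cells alone, and TIMP2, ADAM10, ADAM11, ADAMTS7, ADAMTS9 and ADAMTSL3 were called lower there alone. The tested genes starting within 5 Mb of each of the 20 called members had medians between -0.13 and 0.22 (log2) in Tyr19Phe CDK9 cells and between -0.07 and 0.05 with the inhibitor. A call in one of these comparisons alone does not show that the groups differ, and a difference between the inhibitor and the mutation was read from the direct comparison.

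**Figure D2:**
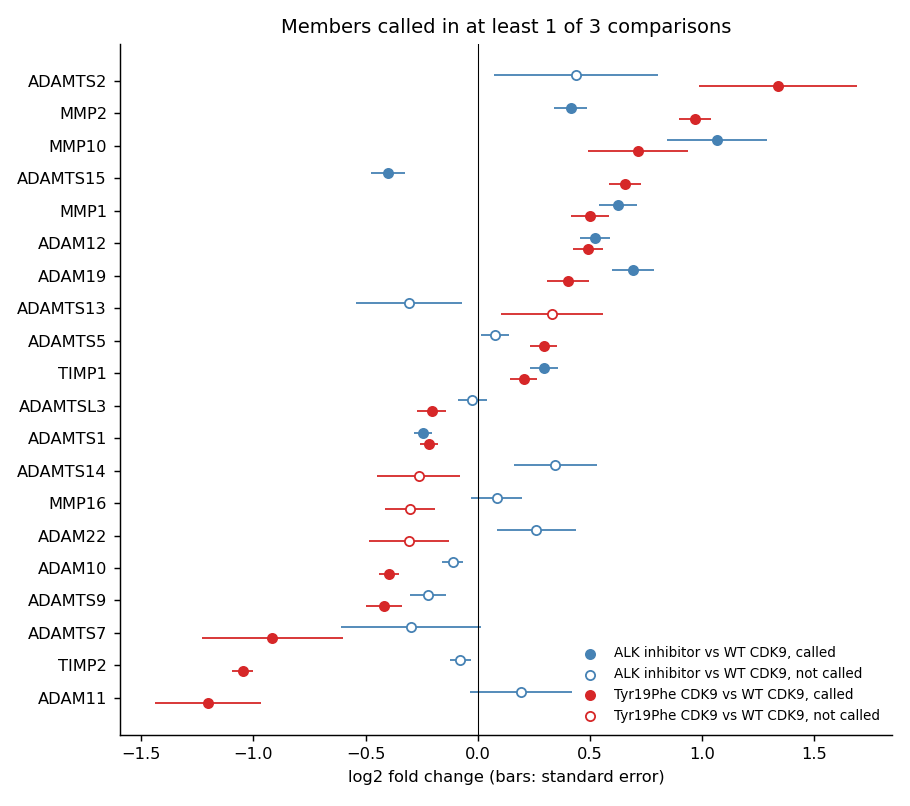
Log2 fold change (with its standard error as a bar) of the 20 members called in at least 1 of the 3 comparisons, with ALK inhibitor-treated cells in blue and Tyr19Phe CDK9 cells in red, each against the same 3 WT CDK9 libraries, and filled where called at an adjusted p under 0.05 (edgeR). MMP1, MMP10, ADAM12, ADAM19, TIMP1 and MMP2 lie right of 0 in both, TIMP2 and ADAM11 are near -1 in Tyr19Phe CDK9 cells alone, and ADAMTS15 lies left of 0 with the inhibitor and right of it in Tyr19Phe CDK9 cells.

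Among the secreted collagenases and stromelysins, MMP1 and MMP10 were higher in both groups than in WT CDK9 cells. MMP1 (ENSG00000196611, chr11:102789920-102798160, minus strand, hg38), the interstitial collagenase that cuts fibrillar collagens, read 36.0, 36.6 and 36.9 CPM in WT CDK9 cells, 58.0, 59.0 and 51.7 CPM with the inhibitor, and 58.3, 48.4 and 48.0 CPM in Tyr19Phe CDK9 cells. All 6 libraries of the other two groups lay above all 3 WT CDK9 libraries. The rise was 1.54-fold with the inhibitor (log2 0.62, SE 0.09, adjusted p = 4.75e-06) and 1.41-fold in Tyr19Phe CDK9 cells (log2 0.50, SE 0.08, adjusted p = 4.47e-05). The direct difference was -0.12 on the log2 scale (SE 0.08, adjusted p = 0.319) and was not called. MMP10 (ENSG00000166670, chr11:102770503-102780628, minus strand), stromelysin-2, was far less abundant and read 5.13, 2.80 and 3.21 CPM, then 7.74, 7.08 and 8.53 CPM, then 5.66, 5.62 and 7.05 CPM in the same order of groups. Here too no library of the other groups fell below a WT CDK9 library, although the WT CDK9 replicate 1 value of 5.13 CPM came close. MMP10 rose by 1.07 on the log2 scale with the inhibitor (SE 0.22, adjusted p = 0.00239) and by 0.72 in Tyr19Phe CDK9 cells (SE 0.22, adjusted p = 0.0217). Its direct difference of -0.35 (log2, SE 0.21, adjusted p = 0.271) was not called. The Tyr19Phe CDK9 call was lost when WT CDK9 replicate 2, WT CDK9 replicate 3 or Tyr19Phe CDK9 replicate 3 was left out (adjusted p = 0.121, 0.092 and 0.099).

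MMP1 and MMP10 lie in a cluster of 9 MMP genes that spans 435 kb of chromosome 11 (102520508 to 102955734), in the order MMP7, MMP20, MMP27, MMP8, MMP10, MMP1, MMP3, MMP12 and MMP13. Only 4 of the 9 passed the filter. MMP27, MMP8 and MMP12 had no read in any library, MMP3 had 1 count in 1 WT CDK9 library, and MMP20 had 2 and 3 counts in 2 Tyr19Phe CDK9 libraries. MMP7, matrilysin, had 32, 28 and 38 counts in WT CDK9 cells, 20, 34 and 26 with the inhibitor and 46, 22 and 15 in Tyr19Phe CDK9 cells, and these overlapped and were not called (adjusted p = 0.86 and 0.295). MMP13, collagenase-3, had 3 to 19 counts per library and was not called either (log2 1.10, SE 0.76, adjusted p = 0.565 with the inhibitor). The tested genes starting within 5 Mb of MMP1 had medians of 0.01 (inhibitor) and 0.06 (Tyr19Phe CDK9) on the log2 scale. WTAPP1 overlaps MMP1 and MMP10 on the other strand, with 0 to 18 counts per library, and whether counting used the strand is not given in the sources used here.

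Promoters of several of these MMP genes are known targets of AP-1, the dimer of FOS and JUN proteins. RefSeq promoter sequences (GRCh38.p14) were matched by symbol for 45 of the 72 members, and 44 of these had a single entry. MMP1 and MMP2 had no entry in the table, and MMP3, MMP12 and MMP13 of the cluster were also not among these 44. The AP-1 letters TGANTCA, which read the same on both strands, were searched in the 250 bases before each start. They occurred in 4 of 44 members (9.09%), beside 1518 of 22114 RefSeq promoters of this length (6.86%). Among tested genes alone they occurred in 2 of 26 members (7.69%), beside 301 of 7844 promoters (3.84%). The 4 members were MMP10, MMP7 and MMP20 of the cluster and ADAMTS12. The tested members of the cluster with a match are printed because both hold the letters at the same distance, with the match beginning 67 bases before the start, and one gene was called while the other was not. They are given 5′ to 3′ on the gene's strand, with the match in capitals.
MMP10 (chr11:102780629-102780878, minus strand): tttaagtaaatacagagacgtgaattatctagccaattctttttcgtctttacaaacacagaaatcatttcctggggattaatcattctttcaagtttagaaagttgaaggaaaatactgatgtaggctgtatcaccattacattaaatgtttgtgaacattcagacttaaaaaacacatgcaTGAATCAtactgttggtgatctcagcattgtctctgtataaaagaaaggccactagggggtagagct
MMP7 (chr11:102530748-102530997, minus strand): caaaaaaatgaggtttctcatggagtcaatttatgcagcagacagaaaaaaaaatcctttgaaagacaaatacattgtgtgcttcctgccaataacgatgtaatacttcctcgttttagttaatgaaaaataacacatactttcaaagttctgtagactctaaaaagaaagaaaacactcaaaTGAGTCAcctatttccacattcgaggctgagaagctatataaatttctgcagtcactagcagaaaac
MMP10 holds TGAATCA and was called higher in both comparisons, and MMP7 holds TGAGTCA and was called in neither. A match of letters is a description, and no binding was measured here.

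**Figure D3:**
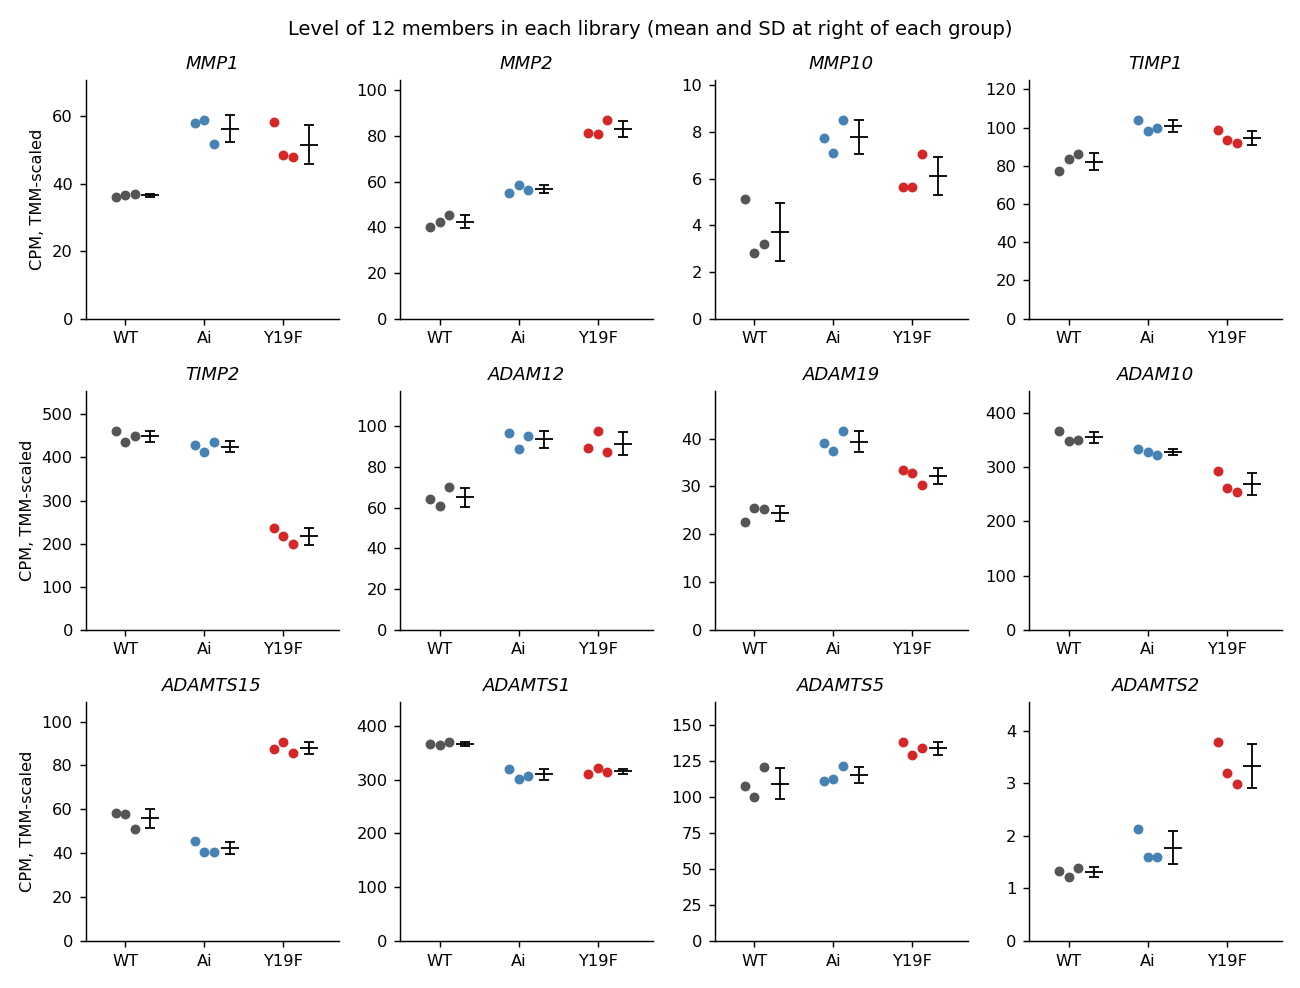
Level in CPM (TMM-scaled, axes from 0) of 12 members in each of the 9 libraries, with 3 points per group (WT, WT CDK9 cells; Ai, with the ALK inhibitor; Y19F, Tyr19Phe CDK9 cells) and the group mean and SD beside them. MMP2 steps up from 39.9 to 45.3 CPM in WT CDK9 cells to 80.6 to 87.2 CPM in Tyr19Phe CDK9 cells, while TIMP2 drops from 436 to 462 CPM to 198 to 237 CPM.

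MMP2 and its inhibitor TIMP2 moved in opposite directions in Tyr19Phe CDK9 cells. MMP2 (ENSG00000087245, chr16:55389700-55506691, plus strand), gelatinase A, which degrades denatured collagens and type IV collagen, read 39.9, 42.4 and 45.3 CPM in WT CDK9 cells, 54.9, 58.6 and 56.5 CPM with the inhibitor, and 81.5, 80.6 and 87.2 CPM in Tyr19Phe CDK9 cells. The 3 groups were fully separated, with the inhibitor between the other two. The rise was 1.33-fold with the inhibitor (log2 0.41, SE 0.07, adjusted p = 0.000283) and 1.95-fold in Tyr19Phe CDK9 cells (log2 0.97, SE 0.07, adjusted p = 5.96e-12). The direct difference of 0.55 (log2, SE 0.07) also passed the test (adjusted p = 3.61e-07), so the rise was larger with the mutation. MMP9, the other gelatinase, had 0 to 5 counts per library and was not tested.

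TIMP2 (ENSG00000035862, chr17:78852977-78925387, minus strand) read 462, 436 and 450 CPM in WT CDK9 cells, 429, 412 and 435 CPM with the inhibitor, and 237, 217 and 198 CPM in Tyr19Phe CDK9 cells. The 3 Tyr19Phe CDK9 libraries lay far below the other 6. TIMP2 was at 0.483 of its WT CDK9 level in Tyr19Phe CDK9 cells (log2 -1.05, SE 0.05, adjusted p = 3.86e-17), the smallest adjusted p of any member in any comparison. Under the inhibitor the log2 change of TIMP2 was -0.08 (SE 0.05, adjusted p = 0.477), and the direct difference was -0.97 (SE 0.05, adjusted p = 1.77e-16). The median of the tested genes within 5 Mb of TIMP2 was 0.00 (log2) in the mutant.

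TIMP1 (ENSG00000102265, chrX:47582313-47586789, plus strand), a secreted inhibitor of most soluble MMPs, rose modestly in both groups. It read 77.3, 83.5 and 85.9 CPM in WT CDK9 cells, 104, 98.5 and 100.0 CPM with the inhibitor and 98.8, 93.6 and 91.8 CPM in Tyr19Phe CDK9 cells. All 6 values lay above those of WT CDK9 cells. The log2 fold change was 0.30 with the inhibitor (SE 0.06, adjusted p = 0.00184) and 0.20 in Tyr19Phe CDK9 cells (SE 0.06, adjusted p = 0.0148), and the direct difference of -0.09 was not called (adjusted p = 0.314). The call in Tyr19Phe CDK9 cells was lost without WT CDK9 replicate 1 or Tyr19Phe CDK9 replicate 1 (adjusted p = 0.116 and 0.0814). TIMP3, the inhibitor that also blocks ADAM and ADAMTS proteases, had 0 to 2 counts per library, and TIMP4 had 6 counts in 1 ALK inhibitor-treated library and none elsewhere. Neither was detectable above the floor across a group.

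Put on the RPKM scale within each library, the ratio of MMP2 to TIMP2 was 0.108 ± 0.00854 in WT CDK9 cells, 0.152 ± 0.00883 with the inhibitor and 0.440 ± 0.0564 in Tyr19Phe CDK9 cells (SD, n = 3 each). The 3 Tyr19Phe CDK9 values were 0.393, 0.425 and 0.503, all above the other 6. The ratio of TIMP2 to TIMP1 was 1.498 ± 0.119, 1.15 ± 0.0327 and 0.626 ± 0.0333 (SD, n = 3) in the same order, so TIMP1 was the more abundant of the pair in Tyr19Phe CDK9 cells alone. The RPKM of the tested MMP entries, with MMP24OS left out, summed to 50.8 ± 0.672, 66.8 ± 2.94 and 67.8 ± 3.51 (SD, n = 3). That of TIMP1 and TIMP2 summed to 133 ± 2.17, 141 ± 3.53 and 100.0 ± 5.77 (SD, n = 3). These sums include RNA of genes already called one by one and were given no test. That of the MMPs also holds genes called in no comparison, such as MMP15 and MMP24.

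The membrane-type MMPs were measured at low to moderate levels, and none of the 6 was called against WT CDK9 cells. MMP14, the membrane-type protease that activates MMP2, was 2.98 ± 0.450 CPM in WT CDK9 cells, 2.72 ± 0.546 CPM with the inhibitor and 3.90 ± 0.426 CPM in Tyr19Phe CDK9 cells (SD, n = 3). Its 3 Tyr19Phe CDK9 libraries lay above the WT CDK9 libraries, but the log2 fold change of 0.39 (SE 0.28, adjusted p = 0.396) did not pass the test. MMP15, at 30.8 to 33.9 CPM in the group means, had log2 fold changes of 0.05 (SE 0.10) and -0.08 (SE 0.10). MMP16 read 40.6, 34.8 and 51.3 CPM in WT CDK9 cells, 46.8, 42.5 and 44.8 CPM with the inhibitor, and 40.9, 30.8 and 30.7 CPM in Tyr19Phe CDK9 cells. It was lower in Tyr19Phe CDK9 than in inhibitor-treated cells (log2 -0.39, SE 0.11, adjusted p = 0.0109), and against WT CDK9 cells it overlapped and was not called (log2 -0.30, SE 0.11, adjusted p = 0.0549), although it was called lower without WT CDK9 replicate 2 or Tyr19Phe CDK9 replicate 1 (adjusted p = 0.00737 and 0.00561). The direct call was lost without ALK inhibitor replicate 1, Tyr19Phe CDK9 replicate 2 or Tyr19Phe CDK9 replicate 3 (adjusted p = 0.0541, 0.0805 and 0.0795).

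Of the ADAMs with a zinc site, ADAM12 and ADAM19 were higher in both groups and ADAM10 was lower in Tyr19Phe CDK9 cells. ADAM12 (ENSG00000148848, chr10:126012381-126388455, minus strand), meltrin alpha, which can shed EGF receptor ligands, read 64.4, 60.8 and 70.0 CPM in WT CDK9 cells, 96.6, 88.8 and 95.1 CPM with the inhibitor and 89.2, 97.8 and 87.3 CPM in Tyr19Phe CDK9 cells. The other two groups lay above WT CDK9 cells in every library and overlapped each other. The log2 fold change was 0.52 with the inhibitor (SE 0.07, adjusted p = 1.68e-06) and 0.49 in Tyr19Phe CDK9 cells (SE 0.07, adjusted p = 1.3e-06), with a direct difference of -0.03 (SE 0.07, adjusted p = 0.787). ADAM19 (ENSG00000135074, chr5:157395534-157575775, minus strand), meltrin beta, which can process neuregulins, read 22.5, 25.4 and 25.2 CPM, then 39.0, 37.5 and 41.6 CPM, then 33.4, 32.8 and 30.2 CPM. The 3 groups did not overlap, and the inhibitor gave the highest values. ADAM19 rose by 0.69 on the log2 scale with the inhibitor (SE 0.09, adjusted p = 4.51e-06) and by 0.40 in Tyr19Phe CDK9 cells (SE 0.09, adjusted p = 0.00223). Its direct difference of -0.29 (SE 0.09, adjusted p = 0.0199) was lost without ALK inhibitor replicate 1, ALK inhibitor replicate 3 or Tyr19Phe CDK9 replicate 3 (adjusted p = 0.0502, 0.108 and 0.102). ADAM19 overlaps CYFIP2 on the other strand, which had 982 to 1261 counts per library, and reads of the pair cannot be told apart without strand.

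ADAM10 (ENSG00000137845, chr15:58588807-58749978, minus strand), the sheddase of Notch receptors and cadherins, read 368, 348 and 350 CPM in WT CDK9 cells, 333, 329 and 323 CPM with the inhibitor and 293, 262 and 255 CPM in Tyr19Phe CDK9 cells. The 3 groups were separated, with Tyr19Phe CDK9 cells lowest. The log2 fold change was -0.40 in Tyr19Phe CDK9 cells (SE 0.05, adjusted p = 6.23e-08) and -0.28 against the inhibitor (SE 0.05, adjusted p = 1.64e-05), while -0.11 with the inhibitor did not pass the test (SE 0.05, adjusted p = 0.199). ADAM17, the sheddase of TNF and of EGF receptor ligands, was 52.1 ± 2.25, 55.0 ± 3.30 and 49.5 ± 1.12 CPM (SD, n = 3) in the 3 groups. It was called in no comparison, with log2 fold changes of 0.08 (SE 0.08) and -0.07 (SE 0.07) against WT CDK9 cells. ADAM15 was 58.0 ± 4.68, 58.5 ± 6.37 and 52.7 ± 4.35 CPM (SD, n = 3) and was likewise not called.

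Of the ADAMs without a working zinc site, which act as binding proteins at the cell surface, ADAM11 and ADAM22 were called. ADAM11 (ENSG00000073670, chr17:44759031-44781846, plus strand) read 5.23, 6.39 and 5.88 CPM in WT CDK9 cells, 5.65, 7.08 and 7.29 CPM with the inhibitor, and 2.23, 3.24 and 2.11 CPM in Tyr19Phe CDK9 cells. The 3 Tyr19Phe CDK9 values lay below the other 6. It was at 0.434 of its WT CDK9 level there (log2 -1.20, SE 0.24, adjusted p = 0.000309), with a direct difference of -1.40 (SE 0.24, adjusted p = 3.46e-05). ADAM22, a receptor for the secreted LGI proteins, was 9.38 ± 1.10, 11.3 ± 1.49 and 7.58 ± 1.81 CPM (SD, n = 3), and only the direct difference of -0.57 passed the test (SE 0.18, adjusted p = 0.0188). That call was lost without ALK inhibitor replicate 2 or Tyr19Phe CDK9 replicate 2 (adjusted p = 0.0997 and 0.147). ADAM23 was called in no comparison.

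The ADAMTS proteases that cut the proteoglycans versican and aggrecan went different ways. ADAMTS1 (ENSG00000154734, chr21:26835747-26845409, minus strand), the most abundant of them, read 366, 364 and 370 CPM in WT CDK9 cells, 321, 301 and 307 CPM with the inhibitor, and 311, 321 and 314 CPM in Tyr19Phe CDK9 cells. Both groups lay below WT CDK9 cells in every library. The log2 fold change was -0.24 with the inhibitor (SE 0.04, adjusted p = 8.67e-05) and -0.22 in Tyr19Phe CDK9 cells (SE 0.04, adjusted p = 0.000113), with a direct difference of 0.03 (SE 0.04, adjusted p = 0.709). ADAMTS5 (ENSG00000154736, chr21:26917912-26966513, minus strand), the main aggrecanase of cartilage, lies 72.5 kb from ADAMTS1 and read 107, 99.5 and 121 CPM, then 111, 112 and 122 CPM, then 138, 129 and 134 CPM. Unlike its neighbour it was highest in Tyr19Phe CDK9 cells, whose 3 libraries lay above the other 6. It rose by 0.29 on the log2 scale against WT CDK9 cells (SE 0.06, adjusted p = 0.000636), and tested genes within 5 Mb had a median of -0.13 there. The direct difference of 0.22 (SE 0.06, adjusted p = 0.00928) was lost without ALK inhibitor replicate 1 (adjusted p = 0.0532), and with the inhibitor the log2 fold change was 0.08 (SE 0.06, adjusted p = 0.651).

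ADAMTS15 (ENSG00000166106, chr11:130448974-130476641, plus strand), another versican-cutting protease, was the one member called in opposite directions against WT CDK9 cells. It read 58.5, 58.1 and 50.9 CPM in WT CDK9 cells, 45.6, 40.6 and 40.7 CPM with the inhibitor, and 87.5, 90.8 and 85.7 CPM in Tyr19Phe CDK9 cells. The 3 groups did not overlap, with the inhibitor lowest and Tyr19Phe CDK9 cells highest. The log2 fold change was -0.40 with the inhibitor (SE 0.08, adjusted p = 0.000688) and 0.66 in Tyr19Phe CDK9 cells (SE 0.07, adjusted p = 3.16e-08). The direct difference was 1.05 (SE 0.07, adjusted p = 1.05e-12), a 2.08-fold gap. Tested genes within 5 Mb had medians of -0.00, 0.04 and 0.04 in the 3 comparisons. ADAMTS9 (ENSG00000163638, chr3:64515654-64688000, minus strand), which also cuts versican, read 61.9, 64.5 and 59.3 CPM, then 53.3, 55.3 and 50.6 CPM, then 50.9, 47.2 and 41.0 CPM. Both groups lay below WT CDK9 cells in every library. The log2 fold change was -0.42 in Tyr19Phe CDK9 cells (SE 0.08, adjusted p = 0.000201) and, not called, -0.22 with the inhibitor (SE 0.08, adjusted p = 0.127), and the direct difference of -0.19 (SE 0.08, adjusted p = 0.0829) was not called either.

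Of the ADAMTS enzymes that remove the amino-terminal propeptide of procollagens, ADAMTS2 and ADAMTS14 were called. ADAMTS2 (ENSG00000087116, chr5:179110851-179345430, minus strand) had 26, 23 and 26 counts in WT CDK9 cells, 45, 29 and 31 with the inhibitor, and 112, 90 and 79 in Tyr19Phe CDK9 cells. After scaling these were 1.31 ± 0.0898, 1.78 ± 0.311 and 3.33 ± 0.420 CPM (SD, n = 3), and the 3 groups did not overlap. ADAMTS2 was 2.53-fold higher in Tyr19Phe CDK9 than in WT CDK9 cells (log2 1.34, SE 0.35, adjusted p = 0.00627), while the direct difference of 0.90 (SE 0.34, adjusted p = 0.0608) was not called, although it was with at least 10 counts required in every library (adjusted p = 0.0393) or with only the 2 groups compared in the fit (adjusted p = 0.0495). ADAMTS14 was 6.76 ± 0.442, 8.58 ± 1.32 and 5.62 ± 0.324 CPM (SD, n = 3). Only its direct difference passed the test (log2 -0.61, SE 0.18, adjusted p = 0.0147), and it was lost without ALK inhibitor replicate 3 or Tyr19Phe CDK9 replicate 3 (adjusted p = 0.0996 and 0.0556).

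The remaining called members were scarce or changed little. ADAMTS7, which cuts cartilage oligomeric matrix protein, read 3.33, 3.27 and 4.12 CPM in WT CDK9 cells, 2.71, 3.02 and 3.00 CPM with the inhibitor and 1.42, 1.85 and 2.41 CPM in Tyr19Phe CDK9 cells. The change of -0.92 (log2) in Tyr19Phe CDK9 cells (SE 0.31, adjusted p = 0.0395) was lost when any WT CDK9 library or Tyr19Phe CDK9 replicate 1 or 2 was left out (adjusted p = 0.0542 to 0.15). That call was also lost with no filter beyond 1 count in total (adjusted p = 0.0821). For ADAMTS7 the direct difference from the inhibitor was not called (log2 -0.62, SE 0.32, adjusted p = 0.18). It also overlaps MORF4L1 on the other strand, which had 5101 to 8532 counts per library. ADAMTSL3, an ADAMTS-like matrix protein without a protease domain, read 85.4, 76.9 and 79.0 CPM, then 78.9, 81.5 and 77.0 CPM, then 71.0, 68.5 and 69.8 CPM. All 3 Tyr19Phe CDK9 values lay below the other 6, by -0.21 against WT CDK9 cells (log2, SE 0.06, adjusted p = 0.0206) and by -0.18 against the inhibitor (SE 0.06, adjusted p = 0.039). The first of these calls was lost without WT CDK9 replicate 1 or Tyr19Phe CDK9 replicate 2 or 3 (adjusted p = 0.167, 0.0822 and 0.0628), and the second without any one library of either group compared (adjusted p = 0.0573 to 0.128). Both were also lost with counts thinned to the smallest library (adjusted p = 0.0537 and 0.0631). The second was lost as well with upper-quartile scaling (adjusted p = 0.0542) and with no filter beyond 1 count in total (adjusted p = 0.0672). ADAMTS13, the protease of von Willebrand factor, was 5.36 ± 0.871, 4.35 ± 1.23 and 6.75 ± 1.64 CPM (SD, n = 3), and its groups overlapped. Its direct difference of 0.64 (SE 0.23, adjusted p = 0.0472) had an adjusted p of 0.0776 with DESeq2 and of 0.164 to 0.287 without ALK inhibitor replicate 1 or 3 or Tyr19Phe CDK9 replicate 3. The adjusted p was 0.0634 with counts thinned to the smallest library and 0.0597 with no filter beyond 1 count in total. ADAMTS13 overlaps REXO4 on the other strand (636 to 1425 counts per library).

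The genes that act with or on these proteases were read from 7 lists, and the calls in each are counts beside the shares of all tested genes given above. Of 15 activators and convertases, 9 were tested, and 4 were higher and 1 lower with the inhibitor, and 4 higher and 2 lower in Tyr19Phe CDK9 cells. PLAU, the urokinase that starts the plasmin cascade, had group means of 255, 287 and 333 CPM in WT CDK9, inhibitor-treated and Tyr19Phe CDK9 cells. It rose by 0.17 (log2, SE 0.04, adjusted p = 0.0144) with the inhibitor and by 0.38 (SE 0.04, adjusted p = 2.91e-08) in Tyr19Phe CDK9 cells. FURIN, the convertase that removes the propeptide of membrane-type MMPs and many ADAMs, rose by 0.23 (log2, adjusted p = 0.00193) and 0.18 (adjusted p = 0.00685). The related convertase PCSK6 was 7.70, 8.03 and 1.32 CPM in the group means and fell by 2.53 on the log2 scale in Tyr19Phe CDK9 cells (SE 0.26, adjusted p = 1.01e-08). PCSK5 was lower in both, by -0.31 (adjusted p = 0.000973) and -0.28 (adjusted p = 0.000673). The lysosomal proteases CTSB and CTSL were higher in both groups. CTSB rose by 0.14 (log2, adjusted p = 0.0179) with the inhibitor and by 0.32 (adjusted p = 6.51e-08) in Tyr19Phe CDK9 cells, and CTSL by 0.24 (adjusted p = 0.00341) and 0.16 (adjusted p = 0.0294).

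All 12 partners of ADAM10 and ADAM17 were tested. With the inhibitor 1 was higher, and in Tyr19Phe CDK9 cells 3 were higher and 1 was lower. TSPAN14 and TSPAN15, tetraspanins that bind ADAM10 and help it to the cell surface, were higher in Tyr19Phe CDK9 cells by 0.14 (log2, adjusted p = 0.00970) and 0.37 (adjusted p = 0.0161), where ADAM10 itself was lower. The TSPAN15 libraries overlapped those of WT CDK9 cells. TSPAN33, another of these tetraspanins, was lower in Tyr19Phe CDK9 cells (log2 -0.51, adjusted p = 0.000927), and TSPAN5 was higher with the inhibitor (log2 0.31, adjusted p = 0.0109). SFRP1, also on this list, had group means of 2.06, 2.15 and 4.97 CPM. It was higher in Tyr19Phe CDK9 cells (log2 1.27, SE 0.34, adjusted p = 0.00797). Of 15 other inhibitors and clearance receptors, 12 were tested, and 2 were higher and 1 lower with the inhibitor, and 2 higher and 3 lower in Tyr19Phe CDK9 cells. THBS1 had group means of 6212, 4100 and 3817 CPM. It was lower in both, by -0.60 (log2, SE 0.03, adjusted p = 3.14e-15) with the inhibitor and -0.70 (SE 0.03, adjusted p = 1.24e-17) in Tyr19Phe CDK9 cells. TFPI2, an inhibitor of plasmin and other serine proteases, was 180, 276 and 194 CPM in the group means and was higher with the inhibitor (log2 0.62, SE 0.04, adjusted p = 9.32e-12). SPOCK1, a matrix proteoglycan of the testican family, was higher in both, by 0.29 (log2, adjusted p = 0.0240) and 0.78 (adjusted p = 2.48e-09). LRP1, the receptor that takes up several MMPs and ADAMTS enzymes, was lower in Tyr19Phe CDK9 cells (log2 -0.24, adjusted p = 0.0190). Of 9 related metzincins 3 were tested, none was called with the inhibitor and TLL2 was higher in Tyr19Phe CDK9 cells (log2 0.73, adjusted p = 0.0179).

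Many of the matrix proteins that these proteases cut were lower in Tyr19Phe CDK9 than in inhibitor-treated cells. Of 31 listed, 23 were tested, and 10 were higher and 1 lower with the inhibitor, whereas 1 was higher and 8 lower in Tyr19Phe CDK9 cells. In the direct comparison 15 of 23 were lower in Tyr19Phe CDK9 cells and 0 were higher, beside 11.1% and 9.57% of all tested genes. On the log2 scale the list's median change was 0.22 with the inhibitor, -0.11 in Tyr19Phe CDK9 cells and -0.23 between them. TNC, tenascin C, was 33.1, 67.7 and 34.7 CPM in the group means and rose by 1.03 on the log2 scale with the inhibitor (SE 0.09, adjusted p = 3.77e-10). FN1, fibronectin, rose by 0.30 (adjusted p = 4.78e-07) and LAMA3 by 0.28 (adjusted p = 8.50e-05) with the inhibitor. COL4A1 was lower in both groups, by -0.18 (log2, adjusted p = 0.000557) with the inhibitor and -0.11 (adjusted p = 0.0168) in Tyr19Phe CDK9 cells, and FBN1 was higher in both, by 0.24 (adjusted p = 0.00048) and 0.14 (adjusted p = 0.0220). COL1A1, a chain of the type I collagen that MMP1 cuts, was 104, 133 and 37.9 CPM and fell by 1.46 on the log2 scale in Tyr19Phe CDK9 cells (SE 0.09, adjusted p = 1.04e-13), and it was higher with the inhibitor (log2 0.35, adjusted p = 0.0111). VCAN, versican, the substrate of ADAMTS1, ADAMTS5, ADAMTS9 and ADAMTS15, fell by 0.42 there (SE 0.04, adjusted p = 1.09e-08). NID2 was higher with the inhibitor (log2 0.27, adjusted p = 0.000139) and lower in Tyr19Phe CDK9 cells (-0.24, adjusted p = 0.000154).

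**Figure D4:**
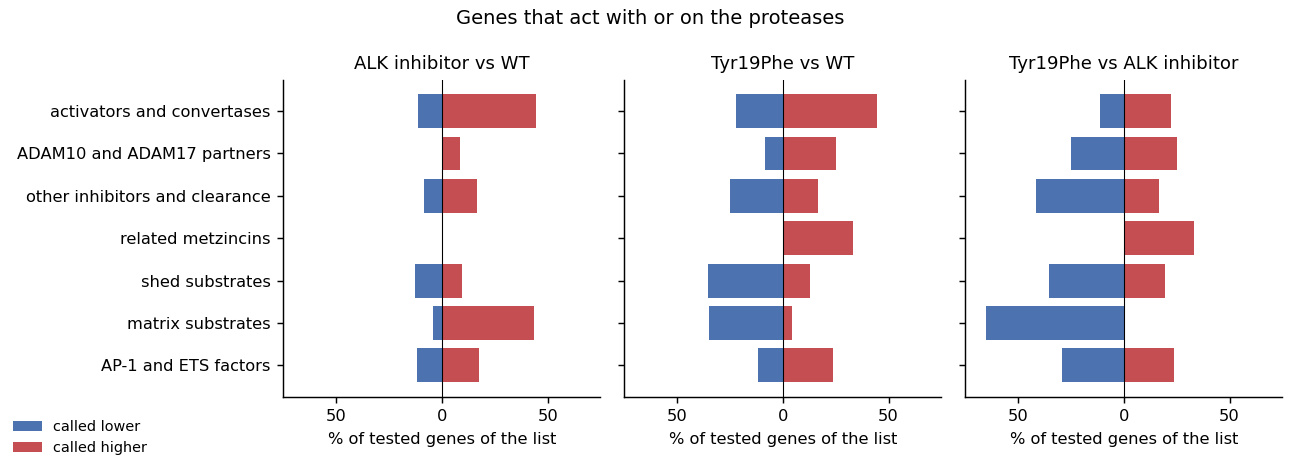
Share of the tested genes of 7 lists (in % of those tested) that were called lower, to the left, or higher, to the right, in each comparison at an adjusted p under 0.05 (edgeR). Of the 23 tested matrix substrates, 10 were higher with the inhibitor, and 15 were lower in Tyr19Phe CDK9 than in inhibitor-treated cells.

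Of 37 shed membrane proteins, 31 were tested, and 3 were higher and 4 lower with the inhibitor, and 4 higher and 11 lower in Tyr19Phe CDK9 cells. HBEGF, an EGF receptor ligand released by ADAMs, was lower in both groups, by -0.57 with the inhibitor (log2, SE 0.09, adjusted p = 0.000116) and by -0.31 in Tyr19Phe CDK9 cells (adjusted p = 0.0152). SDC1, a cell surface proteoglycan, was higher with the inhibitor (log2 0.29, adjusted p = 1.89e-05) and lower in Tyr19Phe CDK9 cells (-0.31, adjusted p = 2.67e-06), with a direct difference of -0.60 (adjusted p = 2.33e-12). CXCL16, a membrane-bound chemokine released by ADAM10, was 11.03, 8.70 and 1.60 CPM in the group means and fell by 2.78 on the log2 scale in Tyr19Phe CDK9 cells (SE 0.22, adjusted p = 2.77e-11). CDH2, N-cadherin, another ADAM10 substrate, rose there by 0.75 (SE 0.05, adjusted p = 8.08e-14), and L1CAM was lower in both groups, by -0.15 with the inhibitor (adjusted p = 0.0334) and by -0.36 in Tyr19Phe CDK9 cells (adjusted p = 1.17e-07). NRG1, a neuregulin, was lower with the inhibitor (log2 -0.28, adjusted p = 0.00319) and higher in Tyr19Phe CDK9 cells (log2 0.24, adjusted p = 0.00382), with a direct difference of 0.52 (adjusted p = 5.64e-08).

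Of 18 AP-1 and ETS transcription factors, which are known regulators of MMP genes, 17 were tested, and 3 were higher and 2 lower with the inhibitor, and 4 higher and 2 lower in Tyr19Phe CDK9 cells. JUNB was higher in both, by 0.46 (log2, SE 0.07, adjusted p = 2.10e-05) and 0.25 (SE 0.07, adjusted p = 0.00893), as was the ETS factor ELK3, by 0.43 (adjusted p = 3.15e-06) and 0.39 (adjusted p = 5.40e-06). ETV5, another ETS factor, was higher with the inhibitor (log2 0.79, adjusted p = 0.000293). JUN was lower with the inhibitor (log2 -0.16, adjusted p = 0.0194), FOSL2 was lower in Tyr19Phe CDK9 cells (log2 -0.25, adjusted p = 9.01e-06), and ETS2 was lower in both, by -0.30 (adjusted p = 0.000230) and -0.28 (adjusted p = 0.000162). Whether any of these bears on the MMP genes was not tested.

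The 30 members that did not pass the filter were at most at 14 counts in any library. Of these, 12 had no read at all (MMP8, MMP12, MMP26, MMP27, ADAM2, ADAM7, ADAM29, ADAM30, ADAMTS12, ADAMTS18, ADAMTS20 and ADAMTSL2), 5 stayed at or below 3 counts in every library and 13 exceeded 3 counts in at least 1 library. A count of 0 allows up to 0.102 to 0.165 CPM, so expression below that was not detectable at this depth.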

How the data were processed

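RNA of 9 SKOV3 libraries was sequenced, 3 each of WT CDK9 cells, WT CDK9 cells with an ALK inhibitor for 24 h and Tyr19Phe CDK9 cells, and groups came from the deposited labels. The authors deposited raw read counts per gene without normalization, beside gene position, biotype and length. The submitters' processing notes name CASAVA, HISAT2 2.0.5, featureCounts 1.5.0-p3 and GRCh38/hg38. The annotation release and the use of strand are not given in the sources used here. Coordinates are those of the deposited table.

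Counts were analysed with edgeR 4.0.16 in R 4.3.3. Genes passed filterByExpr (minimum count 10, minimum total 15), libraries were scaled by TMM, and the quasi-likelihood fit held the 9 libraries together, with a mean for each of the 3 groups. Contrasts were two-sided, with Benjamini-Hochberg adjustment across the 16350 tested genes and calls at an adjusted p under 0.05. CPM was TMM-scaled and RPKM used the deposited length. With 3 against 3 libraries an exact permutation test of 1 value cannot go below p = 0.1, so single genes were tested in the model alone. Neighbours were tested genes starting within 5000000 bases.

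The members and lists were chosen with earlier results of these data known. Named were members called in any comparison, the 5 most abundant, the TIMPs, the chromosome 11 MMP genes, CDK9 and ALK, and up to 3 called genes per list, direction and comparison. MMP14, MMP15, MMP9, ADAM15, ADAM17 and ADAM23 were named for their roles after their values were seen, as were the marker genes given singly and the genes overlapping a member. Alternatives were other scalings, DESeq2 1.42.0, other filters, a fit of 2 groups alone, a replicate block, thinning to the smallest library, an adjusted p under 0.01 and each library left out. Same-numbered libraries did not deviate together (correlations -0.0171 to 0.0668), so they were not paired. The code was tested on simulated counts.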

Additional observations from a re-analysis of the deposited data

Results flagged for a closer look

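ADAMTS15 is set apart because its change against WT CDK9 cells had opposite signs with the inhibitor and in Tyr19Phe CDK9 cells, and the difference between these groups was itself tested. It was 55.8 ± 4.29 CPM in WT CDK9 cells, 42.3 ± 2.85 CPM with the inhibitor and 88.0 ± 2.57 CPM in Tyr19Phe CDK9 cells (SD, n = 3), and the direct difference was 1.05 on the log2 scale (SE 0.07, adjusted p = 1.05e-12, edgeR). All 3 Tyr19Phe CDK9 libraries lay above, and all 3 inhibitor libraries below, the 3 WT CDK9 libraries. Of all 16350 tested genes, 93 were called in opposite directions against WT CDK9 cells.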

How the results depend on the processing

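With the inhibitor, 2 members were lower and 6 higher under every alternative, and they were the same genes. In Tyr19Phe CDK9 against WT CDK9 cells the 7 lower members became 5 to 8 and the 9 higher 7 to 9 under the alternatives, and 5 to 7 and 8 to 9 when a library was left out. In the direct comparison the 8 lower members became 3 at an adjusted p under 0.01, 7 to 9 under the other alternatives and 5 to 9 when a library was left out (5 without ALK inhibitor replicate 1 or 3 or Tyr19Phe CDK9 replicate 2 or 3), and the 4 higher became 3 to 5 under the alternatives (5 with at least 10 counts in every library and with only the 2 groups compared) and 2 to 4 when a library was left out, with 2 without ALK inhibitor replicate 1. With a replicate block the counts lower and higher were 2 and 6, 8 and 9, and 9 and 4 in the 3 comparisons, although the numbers do not pair the libraries. Library size alone as scaling moved the split of all called genes with the inhibitor from 447 lower and 297 higher to 344 and 406, and moved no member across. Of the values of single members, 1076 kept their direction and side of the threshold, 51 lost a call, 9 gained one and 4 changed sign. The sign changes were in values never called. They were ADAM12 between Tyr19Phe CDK9 and inhibitor-treated cells (-0.0823 to 0.00287 on the log2 scale over the libraries left out, the highest without Tyr19Phe CDK9 replicate 3), ADAMTSL3 with the inhibitor (0.0018 under library size alone, and -0.0518 to 0.0246 over the libraries left out, the highest without WT CDK9 replicate 1) and MMP16 with the inhibitor (-0.0351 to 0.249, the lowest without WT CDK9 replicate 2). The cause was not tested. MMP16 in Tyr19Phe CDK9 against WT CDK9 cells was called lower with the block (adjusted p = 0.0307) and with counts thinned to the smallest library (adjusted p = 0.036). It was also called lower with no filter beyond 1 count in total (adjusted p = 0.0101) and with at least 10 counts in every library (adjusted p = 0.0438). Members at a few counts per library could not be compared at this depth.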
